A study of Homo sapiens with 6 samples.

Results

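The genes described here are 28 targets of the transcription factor NF-kB and 25 interferon-stimulated genes, 53 in all, taken by name from a fixed list whatever their level. A row was found for 48 of the 53 among the 32862 genes of the deposited table: 24 NF-kB targets and 24 interferon-stimulated genes. CXCL1, CCL20, IL6, TNF and IFI44L had no row under these names and were not analysed here. Every row of the table has a count in some library, so whether these genes were unread or not listed cannot be told. The levels and medians below cover genes with a row only. The cells were SH-SY5Y, an established line from a human neuroblastoma with adrenergic, neuron-like character, and their poly(A) RNA was sequenced. One group was the unedited wild-type line (WT, 3 libraries). The other was the same line after CRISPR-Cas9 disruption of OTULIN (KO, 3 libraries), the gene of a deubiquitinase that takes linear ubiquitin chains apart. All 6 libraries came from untreated cells and carry the batch label 1, so no cytokine, virus or other inducer was added in either group. Whether the KO line was 1 clone is not given in the sources used here, and the labels do not say that the replicates were separate cultures. The p-values below therefore reflect the spread of these libraries alone, and that spread may be technical.

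NF-kB dimers are held in the cytoplasm by inhibitor proteins of the IkB family until a kinase complex, recruited through linear and other ubiquitin chains, marks the inhibitors for destruction. The freed dimers bind kappaB sites and switch on chemokines, adhesion molecules, survival genes and their own inhibitors. Interferons, bound by their receptors, act through a complex that holds STAT2 and IRF9 and that binds the interferon-stimulated response element (ISRE) and raises a set of antiviral genes. Both programmes are known for low levels in unstimulated cells and for sharp rises after a signal.

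The ISRE and kappaB sequences of these genes are shown first, because the lists are named for the factors that bind such elements. RefSeq promoters (GRCh38.p14) were found for 41 of the 53 genes, and the 250 bases before each annotated start were searched on both strands. The ISRE core was searched as GAAA, any 2 bases and GAAA again, and matches may overlap one another. It was found before any annotated start of 15 of 19 interferon-stimulated genes (78.9%) and 2 of 22 NF-kB targets (9.09%), BCL2A1 and VCAM1, against 3.02% of all 35116 promoters and 3.71% of their 27305 genes. The kappaB consensus of 10 bases was found before 13 of 22 NF-kB targets (59.1%) and 6 of 19 interferon-stimulated genes (31.6%), against 9.96% of the promoters and 11.8% of the genes. The stretches below are the ISRE matches of 6 antiviral genes, written 5′ to 3′ along the gene's own strand, with the matched letters in capitals, and a match on the other strand reads as TTTC, any 2 bases and TTTC.
IFI6: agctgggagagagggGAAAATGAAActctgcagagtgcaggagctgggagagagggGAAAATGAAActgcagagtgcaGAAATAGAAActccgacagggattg
HERC5: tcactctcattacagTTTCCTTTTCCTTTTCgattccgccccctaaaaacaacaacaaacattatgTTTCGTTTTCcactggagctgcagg
ISG15: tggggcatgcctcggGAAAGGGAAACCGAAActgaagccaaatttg
IFIT1: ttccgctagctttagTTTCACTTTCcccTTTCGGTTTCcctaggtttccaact
IFITM3: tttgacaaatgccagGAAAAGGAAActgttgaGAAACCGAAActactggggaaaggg
BST2: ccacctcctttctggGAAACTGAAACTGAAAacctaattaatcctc
IFI6 is at chr1:27672261-27672363 on the minus strand and HERC5 at chr4:88456979-88457069 on the plus strand, each with 3 matches. ISG15 is at chr1:1013369-1013414 (plus), IFIT1 at chr10:89392492-89392544 (plus), IFITM3 at chr11:320871-320927 (minus) and BST2 at chr19:17405730-17405775 (minus), each with 2 matches.

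The kappaB stretches of 6 NF-kB targets are given in the same way, with the matched letters in capitals. They cover the inhibitors with the highest levels in WT, the subunit gene REL, and 3 inducible genes that were nearly unread.
NFKBIA: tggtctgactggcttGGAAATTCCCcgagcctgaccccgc
NFKBIB: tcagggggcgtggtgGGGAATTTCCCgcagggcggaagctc
REL: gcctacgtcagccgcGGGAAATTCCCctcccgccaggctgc
CXCL2: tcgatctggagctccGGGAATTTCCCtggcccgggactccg
CXCL3: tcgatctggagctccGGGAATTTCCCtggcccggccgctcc
VCAM1: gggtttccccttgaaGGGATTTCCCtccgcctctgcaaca
NFKBIA is at chr14:35404806-35404845 (minus strand), NFKBIB at chr19:38899926-38899966 (plus) and REL at chr2:60881512-60881552 (plus). CXCL2 is at chr4:74099248-74099288 (minus), CXCL3 at chr4:74038743-74038783 (minus) and VCAM1 at chr1:100719665-100719704 (plus). The capitals of NFKBIB, CXCL2 and CXCL3 are the same letters, yet NFKBIB was among the highest and CXCL2 and CXCL3 among the lowest of the targets in WT, as the values below show. A match is a description of these letters and not a shown site of binding.

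Most genes of both families lay under 1 FPKM in WT, as did most genes of the table. Levels are compared between genes as FPKM, the fragments per kilobase of transcript relative to all mapped fragments, as the authors deposited them. The mean over the 3 WT libraries was 1 FPKM or more for 11 of the 48 genes (22.9%), 8 of 24 NF-kB targets (33.3%) and 3 of 24 interferon-stimulated genes (12.5%), against 12713 of all 32862 genes in the table (38.7%). On a TPM scale, which rescales the FPKM of each library to a common sum, 12 NF-kB targets and 9 interferon-stimulated genes reached 1. The FPKM of a WT library summed to 280385 to 289570, so this line is lower than 1 FPKM. The share of all genes that reached it was not counted. The median WT level was 0.274 FPKM for the NF-kB targets and 0.158 FPKM for the interferon-stimulated genes, beside 0.320 for all genes. A further 18 genes lay between 0.1 and 1 FPKM, and 19 lay under 0.1 FPKM, 8 NF-kB targets and 11 interferon-stimulated genes. Of all WT counts, 0.0193% ± 0.000386 fell on the NF-kB targets and 0.00562% ± 0.000302 on the interferon-stimulated genes (SD, n = 3). In bulk RNA such as this, fewer cells that express a gene and less RNA per cell cannot be told apart.

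**Figure D1:**
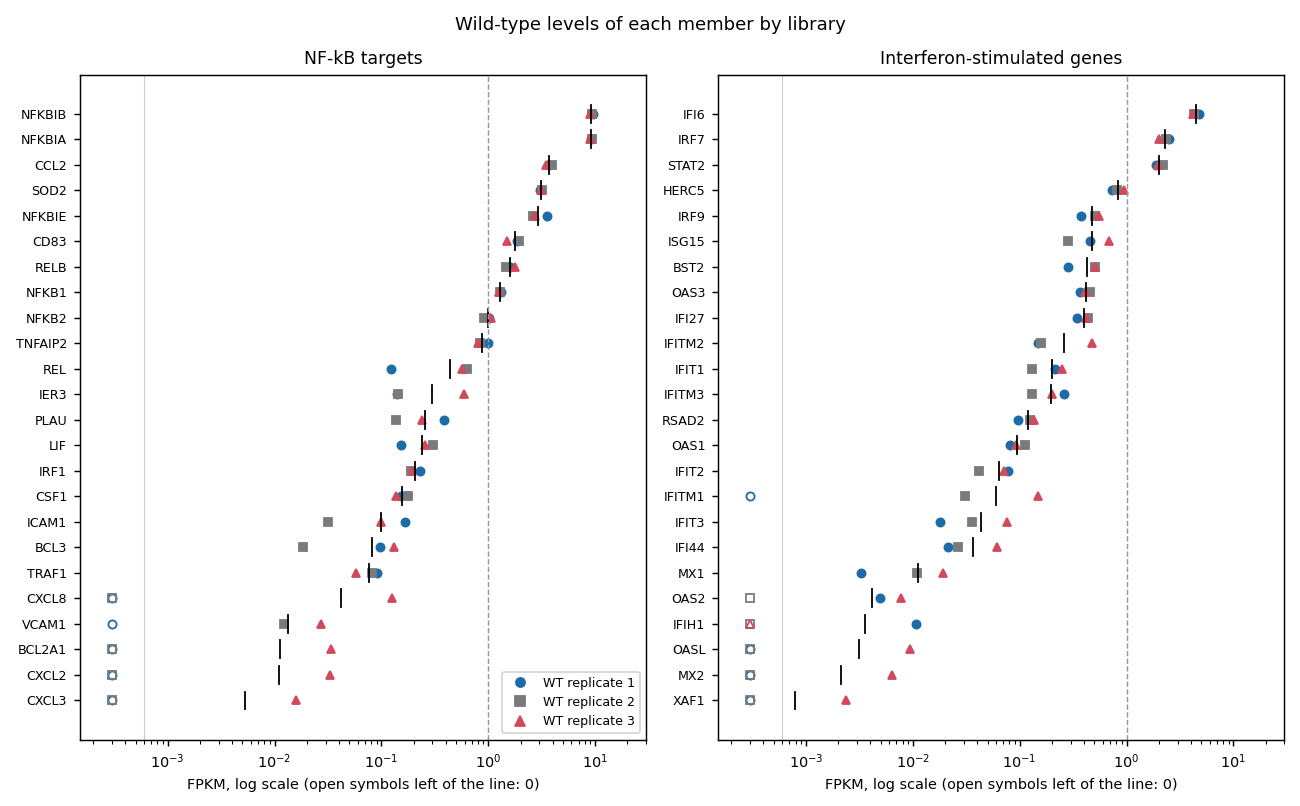
FPKM (log scale) of each gene with a row in WT replicates 1, 2 and 3, with the mean as a black bar, a dashed line at 1 FPKM and open symbols for libraries at 0; NF-kB targets are on the left and interferon-stimulated genes on the right. Replicates lie on top of each other above 1 FPKM, where 8 and 3 genes sit, and spread apart towards the bottom, where replicate 3 is often the highest.

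Subunits and inhibitors were the best-read NF-kB targets, with a median of 1.45 FPKM over 8 genes. NFKBIB and NFKBIA encode IkB-beta and IkB-alpha, the inhibitors that hold NF-kB in the cytoplasm. NFKBIB (ENSG00000104825, hg38 chr19:38899700-38908893) stood at 9.44, 9.25 and 8.90 FPKM in WT replicates 1, 2 and 3. NFKBIA (ENSG00000100906, chr14:35401079-35404749) stood at 9.14, 9.36 and 8.94 FPKM. The WT values of the pair overlapped, so their order was not resolved, and both lay above the other 46 of the 48 genes in all 3 libraries. NFKBIE, the gene of IkB-epsilon, had 3.51, 2.60 and 2.74 FPKM, the first library being the highest. RELB, the subunit of the alternative pathway, had 1.59, 1.45 and 1.78 FPKM. NFKB1, which encodes p105 and its product p50, had 1386, 1429 and 1352 counts and a mean of 1.29 FPKM, with libraries closer together than those of RELB. NFKB2, the gene of p100 and p52, straddled the 1 FPKM line with 1.01, 0.91 and 1.06. BCL3, an atypical IkB protein that binds p50 and p52 in the nucleus, was far lower, with 22, 4 and 29 counts and a mean of 0.0819 FPKM.

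Chemokine and cytokine genes were nearly unread except for CCL2. CCL2, which draws monocytes, had 3.69, 3.97 and 3.47 FPKM (485, 540 and 453 counts; ENSG00000108691, chr17:34255274-34257208), so its 3 libraries lay close together. The other 5 with a row lay far below it. CSF1, a growth factor of macrophages, had 55, 66 and 49 counts, and LIF, a cytokine of the interleukin 6 family, had 40, 83 and 67. The neutrophil chemokine CXCL8 had 0, 0 and 23 counts in WT replicates 1, 2 and 3, and its relatives CXCL2 and CXCL3 had 0, 0 and 4 each. These 3 genes were thus read in WT replicate 3 and at 0 in the other WT libraries. CXCL2 and CXCL3 lie within 62.6 kb of each other on chromosome 4 and are close in sequence, so reads may be split between them.

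Of the surface and protease genes, CD83 was the highest. CD83, a surface protein of activated dendritic cells, had 1.85, 1.94 and 1.49 FPKM. PLAU, the urokinase protease, had 77, 29 and 48 counts in WT, and the adhesion molecule ICAM1 had 40, 8 and 23. In both, WT replicate 2 was the lowest. VCAM1, another adhesion molecule, had 0, 7 and 12 counts. Among survival and other targets, SOD2, the mitochondrial superoxide dismutase, led with 3.02, 3.15 and 3.12 FPKM (3711, 4015 and 3824 counts; ENSG00000291237, chr6:159669069-159727353). SOD2 overlaps WTAP on the opposite strand over 1769 bases; WTAP had 20659 counts over the WT libraries, and whether counting used strand is not given in the sources used here. TNFAIP2, named for its induction by TNF, had 0.99, 0.84 and 0.81 FPKM. IRF1, a transcription factor shared by both programmes, had 194, 165 and 163 counts and a mean of 0.204 FPKM. TRAF1, an adaptor of TNF receptors, had 28, 26 and 18 counts, and IER3, an early response gene, had 14, 15 and 55. BCL2A1, an inhibitor of apoptosis, had 0, 0 and 4 counts.

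Among the interferon-stimulated genes, IFI6 and the transcription factors IRF7 and STAT2 lay at 1 FPKM or more and the other 21 lay below. IFI6, a small membrane protein with antiviral effect, was the highest with 4.79, 4.29 and 4.21 FPKM (ENSG00000126709, chr1:27666064-27672198). IRF7, the factor that amplifies interferon production, had 2.49, 2.35 and 2.02 FPKM, and STAT2, the partner of IRF9, had 1.91, 2.21 and 1.96 (ENSG00000170581, chr12:56341597-56360203). IRF7 and STAT2 overlapped over the 3 libraries, while IFI6 lay above both in each of them. IRF9, the DNA-binding part of the same complex, was lower at 0.38, 0.51 and 0.55 FPKM.

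The RNA sensor IFIH1 and the OAS family were scarce. OAS3, an enzyme that makes the activator of RNase L, led this group with 0.37, 0.46 and 0.41 FPKM (457, 585 and 506 counts), followed by OAS1 with 74, 107 and 84 counts. OAS2 had 4, 0 and 6 counts, OASL 0, 0 and 4, and IFIH1 4, 0 and 0. OAS1, OAS3 and OAS2 lie in that order within 105.9 kb of chromosome 12, so genes of 1 cluster ran from 585 counts in a library to 0. IFIT proteins bind foreign RNA: IFIT1 led with 0.22, 0.13 and 0.25 FPKM (68, 43 and 78 counts), and IFIT2 and IFIT3 had 24, 14 and 22 and 8, 13 and 27 counts. All 3 lie inside LIPA, a gene on the opposite strand with 2345 counts over the WT libraries. The MX GTPases, which block viral nucleocapsids, were close to 0: MX1 had 4, 14 and 26 counts and MX2 had 0, 0 and 7.

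Membrane restriction factors and the ISG15 system lay between these extremes. BST2, which tethers budding virus, led its group with 0.28, 0.51 and 0.50 FPKM (23, 40 and 39 counts). IFITM2 had 17, 18 and 52 counts, IFITM3 had 51, 27 and 39, and IFITM1 had 0, 4 and 18. These 3 proteins hinder the entry of virus, and their genes sit within 25.8 kb of chromosome 11 and are near-identical in parts, so how reads were divided among them is uncertain. HERC5, the ligase that attaches ISG15 to proteins, had 0.73, 0.81 and 0.94 FPKM (236, 272 and 301 counts). Its ubiquitin-like substrate ISG15 had 0.46, 0.29 and 0.68 FPKM, a wider spread on 28, 18 and 42 counts. RSAD2, which encodes viperin, had 38, 51 and 53 counts and IFI27 had 100, 131 and 119, whereas IFI44 had 3, 5 and 9 and XAF1, a proapoptotic gene, 0, 0 and 2. Of the 48 genes with a row, 11 were at 0 in at least 1 WT library and 8 in 2, beside 9568 and 5764 of all 32862 genes. None was at 0 in all 3, but the table holds only genes with a count in some library.

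Precision followed the level. The coefficient of variation of CPM, a count divided by its library total and rescaled, over the 3 WT libraries had a median of 6.95% for the 11 genes at 1 FPKM or more, 22.2% for the 14 from 0.2 to 1 FPKM and 76.4% for the 23 under 0.2 FPKM. In all 6 libraries, 4 was the most frequent count above 0, with 1377 to 1436 genes at 4 and 1262 to 1323 at 1 in WT. A single count may thus not be 1 independent fragment, and the counts of 4 above are read as traces.

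Genes with and without a promoter match overlapped in basal level. The 14 interferon-stimulated genes with an ISRE match and a row ranged from 0.00355 (IFIH1) to 4.43 (IFI6) FPKM with a median of 0.198, and the 4 without a match ranged from 0.000787 (XAF1) to 2.03 (STAT2) with a median of 0.286. NF-kB targets with a kappaB match ranged from 0.00532 (CXCL3) to 9.20 FPKM (NFKBIB) with a median of 0.716 over 10 genes, and those without one from 0.0113 (BCL2A1) to 3.10 (SOD2) with a median of 0.0904 over 8. No test of this was made, since the genes were picked by name. CCL20, CXCL1 and IL6 with a kappaB match, IFI44L with an ISRE match and TNF with neither had no row, so these medians leave them out.

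**Figure D2:**
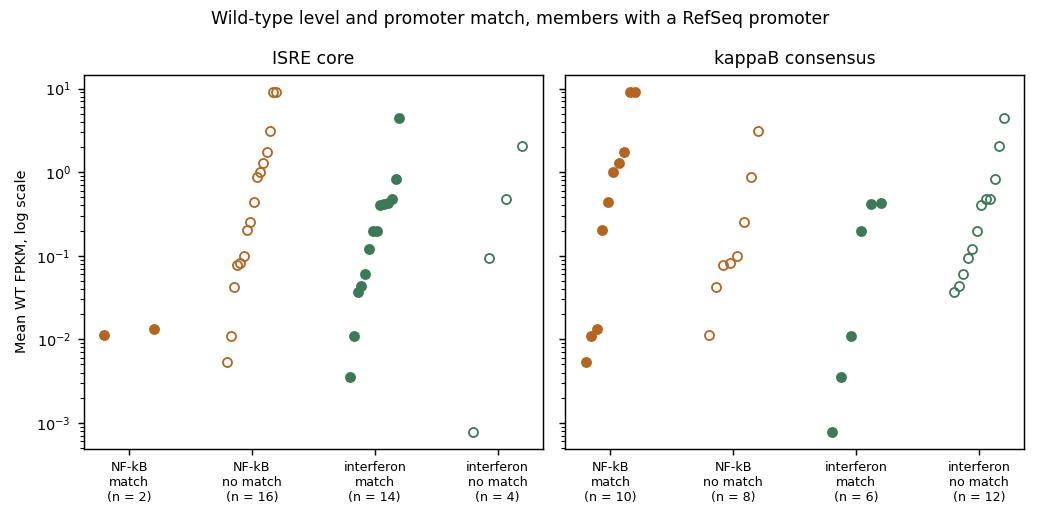
Mean WT FPKM (log scale) of genes with a RefSeq promoter and a row, split by family and by whether the 250 bases before the start hold an ISRE core (left) or a kappaB consensus (right); each point is 1 gene, filled where there is a match. The filled and open points overlap in each family, with medians of 0.198 against 0.286 FPKM for the ISRE in interferon-stimulated genes and 0.716 against 0.0904 FPKM for kappaB in NF-kB targets.

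Of the 48 genes 8 were read in a single WT library, as were 5764 of all 32862 genes, a similar share. WT replicate 3 held the highest CPM for 24 of the 48 genes, 15 of 24 interferon-stimulated genes and 9 of 24 NF-kB targets, where 38.2% of all genes did. Among genes under 0.2 FPKM this was so for 16 of 23 (69.6%), against 5924 of 14683 genes of that level in the whole table (40.3%). CXCL8, CXCL2, CXCL3, BCL2A1, OASL, MX2 and XAF1 had counts in WT replicate 3 alone, and without that library 41 of the 48 genes had any count. This pattern was chosen after the values were seen. Markers of epithelial cells moved with it: 5 of 5 were highest in WT replicate 3, with a summed level of 2.65, 2.40 and 6.70 FPKM in WT replicates 1, 2 and 3. The cadherin CDH1 had 0, 4 and 115 counts and the keratin KRT8 had 38, 16 and 318. Of 6 blood and microglia markers with a row 5 were highest there too (summed 0.834, 0.772 and 1.17 FPKM), and the pan-leukocyte gene PTPRC had 0, 0 and 4 counts. The 7 endothelial and glial markers with a row summed to 0.221, 0.260 and 0.532 FPKM. Their part in the result was not tested.

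**Figure D3:**
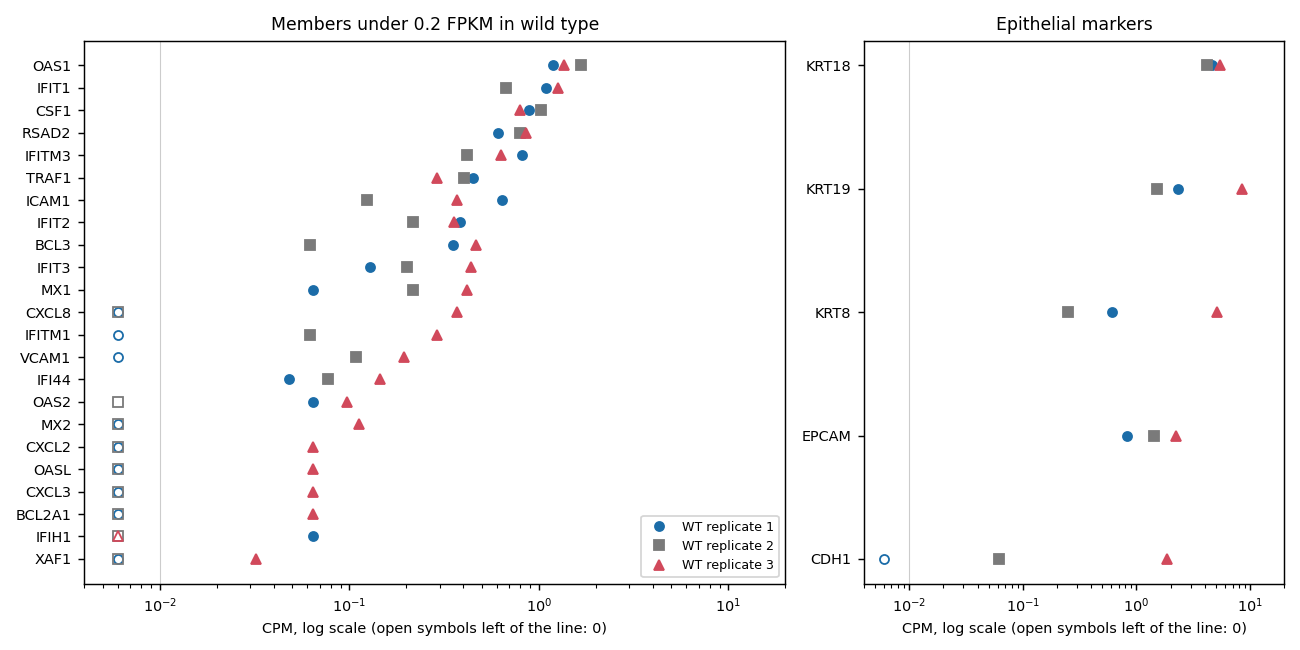
CPM (log scale) in WT replicates 1, 2 and 3 of the 23 genes under 0.2 FPKM (left) and of 5 epithelial markers (right); open symbols left of the grey line are libraries at 0. The triangles of replicate 3 are rightmost for 16 of the 23 genes and for 5 of the 5 markers.

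REL and IRF9 share their strand and bases with another annotated gene, and the shares of the partners' counts differed between the WT libraries. REL encodes the subunit c-Rel. REL had 144, 753 and 656 counts in WT replicates 1, 2 and 3, or 0.12, 0.62 and 0.57 FPKM, so replicate 1 lay far below the others. The long non-coding gene ENSG00000267520, which overlaps REL over 5702 bases, had 586, 178 and 211 counts in the same libraries. REL held 19.7%, 80.9% and 75.7% of the summed counts of both, while the sum itself was 11.7, 14.5 and 14.0 CPM. IRF9 had 179, 239 and 250 counts and its partner ENSG00000259529, with 5219 shared bases, had 3027, 2242 and 1945, so IRF9 held 5.58%, 9.63% and 11.4% of the sum. For IRF9 the sum itself differed, at 51.5, 38.6 and 35.5 CPM, with the partner at its highest in replicate 1. How shared reads were assigned to the partners was not tested. In all, 16 of the 48 genes overlap another row of the table, 13 of them on the opposite strand.

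By median level, signalling, receptor and sensing genes upstream of these genes were read better than the genes themselves in WT. The signalling core of NF-kB had a median of 2.41 FPKM over 8 genes, led by the subunit RELA at 12.9 FPKM. Receptors and adaptors that activate NF-kB had a median of 0.590 FPKM over 13 genes, led by the kinase IRAK1 at 42.6 FPKM. Interferon receptors with their JAK and STAT partners had a median of 2.25 FPKM over 13 genes, led by the receptor chain IFNGR2 at 20.8 FPKM. Genes of nucleic acid sensing had a median of 1.98 FPKM over 11 genes, led by the RNA-editing enzyme ADAR at 27.8 FPKM. Of 21 interferon genes listed, only IFNK and IFNL2 had a row, at 0.0150 and 0.00738 FPKM. Signal transducers, receptors and sensors thus had medians from 0.590 to 2.41 FPKM, beside 0.221 FPKM for the 48 target genes. The groups were mixed: 6 of 13 receptors and adaptors lay at 1 FPKM or more and 5 lay under 0.1 FPKM. Among the 11 sensing genes these counts were 6 and 4, and among the 13 interferon receptor and JAK-STAT genes 8 and 2. The lowest receptor or adaptor stood at 0.00638 FPKM and the lowest sensing gene at 0.00247. A row was found for 13 of 14 receptors and adaptors listed and for 11 of 13 sensing genes.

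**Figure D4:**
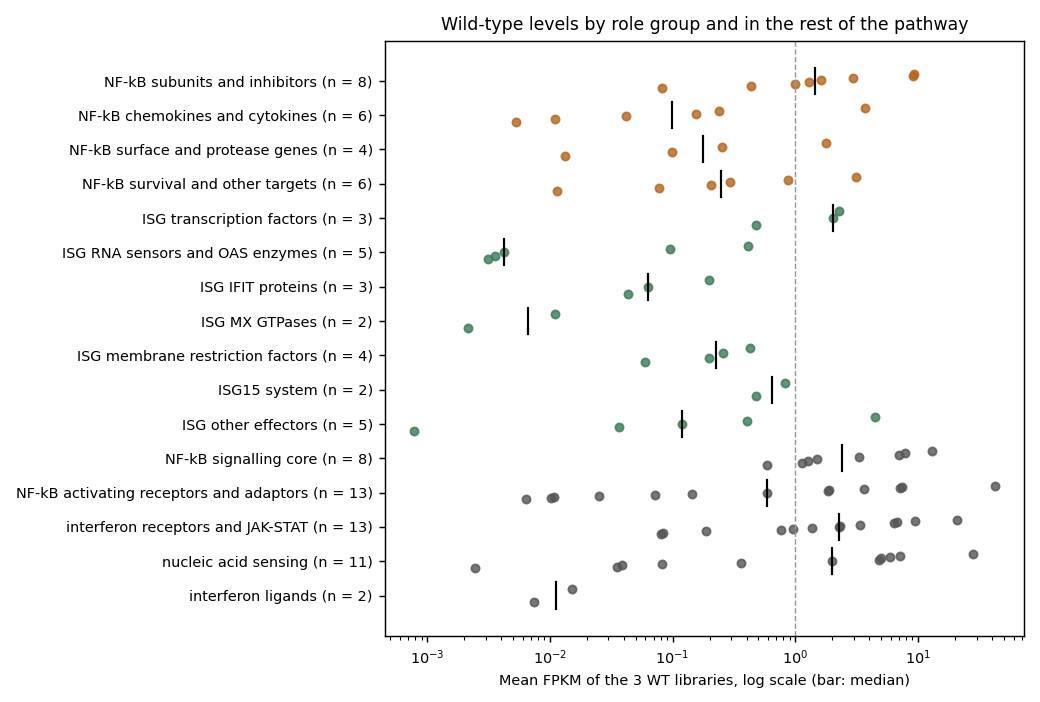
Mean WT FPKM (log scale) of each gene by role, with the median of each group as a black bar; brown points are NF-kB targets, green points interferon-stimulated genes (ISG) and grey points the rest of the pathways. The 4 grey groups of transducers, receptors and sensors have medians from 0.590 to 2.41 FPKM, and of the target groups only the NF-kB subunits and inhibitors (1.45) and the interferon transcription factors (2.03) lie above 1 FPKM.

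The KO libraries were far shallower, and this bounds what can be said of these genes there. The KO libraries held 725827 to 862932 counts and the WT libraries 61772795 to 64352333, on average 78.5 times as many. Of the 32862 genes, 2306 to 2567 had a count in a KO library against 27453 to 27958 in WT, and mitochondrial genes took 0.00372% to 0.00452% of the KO counts against 8.41% to 8.70% of those of WT. A floor of 3 counts stood at 3.48 to 4.13 CPM in 1 KO library and at 1.25 CPM over the 3 together, against 0.0466 to 0.0486 CPM in 1 WT library. OTULIN had 0, 0 and 0 counts in KO and 1682, 2101 and 2155 in WT, but of 3138 genes with WT counts within 1.5 times of its own, 2529 (80.6%) were also at 0 in KO, so its absence does not check the label. The adrenergic markers of the line were all read in WT (summed 1605 to 1842 FPKM, DBH highest at 663), and 6 of 9 were at 0 in KO (summed 127 to 166 FPKM). The 6 mesenchymal markers with a row had a median of 2.04 FPKM in WT, from 0.162 to 39.6 (VIM), beside a median of 123 FPKM for the adrenergic markers. Genotype, depth and composition went together in all 6 libraries and cannot be told apart.

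No NF-kB target or interferon-stimulated gene was called higher in KO, and 19 of 48 were called lower: 11 NF-kB targets and 8 interferon-stimulated genes. The test was edgeR's quasi-likelihood test over all 32862 genes with a Benjamini-Hochberg adjusted p under 0.05, which called 42.6% of all genes lower and 2.46% higher. The share called lower here, 39.6%, was near that background. At an unadjusted p under 0.05, 22 of the 48 genes passed and 0 of them were higher, and DESeq2 called 0 higher as well. KO values lay wholly below WT values for 33 of the 48 genes, where this held for 66.3% of all genes, and wholly above for 0, against 2.78%.

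Most of these genes were not seen at all in KO. In all 3 KO libraries 40 of 48 were at 0 (83.3%), beside 29202 of all genes (88.9%). If each gene had kept its WT share of the counts, 20 of the 48 would have had 3 or more counts over the KO libraries, and 15 of those 20 (75.0%) were at 0, beside 11514 of 14651 genes with such an expectation (78.6%). Of these 20 genes 17 were called lower (85.0%) and 0 higher, beside 90.6% and 4.27% of the 14651 genes. With a filter at a mean of 1 FPKM over all libraries, 8 of the 48 could be tested, 7 lower and 0 higher, where 88.0% and 7.63% of the 10820 genes tested were. NFKBIB, NFKBIE, CCL2 and IRF7 were at 0 in KO and passed this filter through WT alone, so their calls under it are not a separate check. The other 28 genes had fewer than 3 counts expected, and a difference in them was not detectable at this depth by counting; CSF1 and IFIT1, with 2.16 and 2.42 expected, were called lower by the model. Together the NF-kB targets had 118 KO counts where 464 were expected at the WT share, and 91 of the 118 were NFKBIA in 1 library. The interferon-stimulated genes had 10 counts where 135 were expected.

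**Figure D5:**
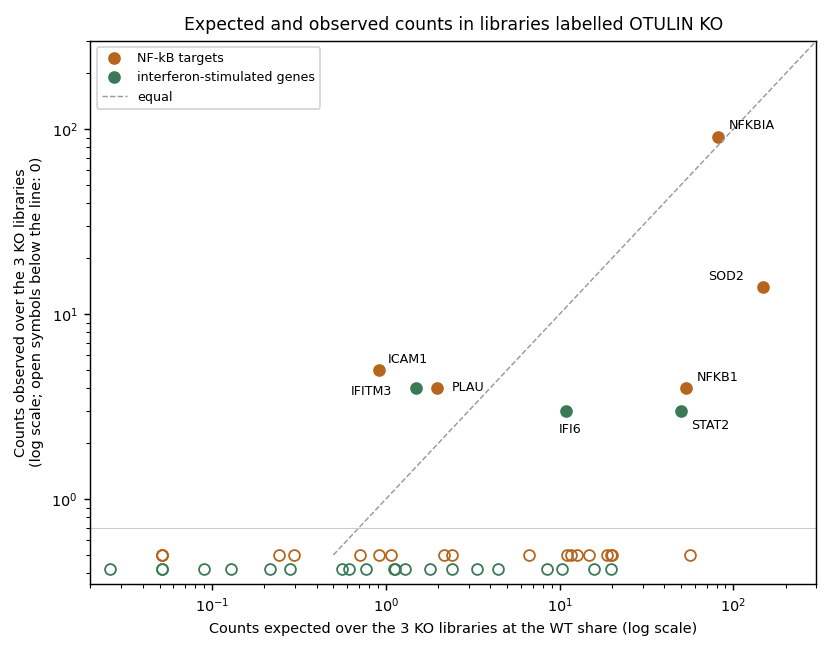
Counts observed over the 3 KO libraries (vertical, log scale) against the counts expected there at the WT share (horizontal, log scale) for the 48 genes, brown for NF-kB targets and green for interferon-stimulated genes; open symbols below the grey line had 0 counts and the dashed line marks equality. The 8 genes with a KO count are named: NFKBIA lies near equality with 91 counts, SOD2, NFKB1, STAT2 and IFI6 lie below it, and ICAM1, PLAU and IFITM3 lie above it on 4 or 5 counts each.

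SOD2 alone was read in every KO library. It had 4, 4 and 6 counts in KO replicates 1, 2 and 3 against 3711, 4015 and 3824 in WT, or 5.95 ± 2.0 CPM against 61.3 ± 1.5 CPM (SD, n = 3 each). The groups did not overlap, and SOD2 was 10.3-fold lower in KO by mean CPM. The log2 change with TMM factors, which rescale the library totals, was -3.92 (SE 0.13, edgeR adjusted p = 1.7e-05). That SE is worked back from the test and rests on 14 KO counts, so it may understate the counting error. CHUK, the gene of a kinase upstream of NF-kB, had the same SE on 194 KO counts. With library totals alone it was -3.39. Folds and pooled ratios below are on library totals and log2 changes on TMM-scaled ones, so their sizes differ. WTAP, on the other strand of its locus, had 1704 counts over the KO libraries.

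Of the inhibitors and subunits of NF-kB 5 of 8 were called lower, where 42.6% of all genes were, and 90.6% of genes with 3 or more counts expected, as 7 of these 8 had. NFKBIB had 0, 0 and 0 counts in KO against 1488, 1511 and 1397 in WT and was at least 18.7-fold lower, measured against the floor of 1.25 CPM (edgeR adjusted p = 8.0e-05). NFKBIE (614, 472 and 477 counts in WT), NFKB2 (387, 362 and 408) and RELB (324, 306 and 361) were likewise at 0 in KO and at least 6.64-fold, 4.92-fold and 4.21-fold lower. NFKB1 had 0, 4 and 0 counts in KO against 1386, 1429 and 1352 in WT, 14.3-fold lower by mean CPM (log2 change -4.25, SE 0.59, edgeR adjusted p = 0.0011). Leaving out KO replicate 2 put it at 0. REL was at 0 in KO, where 19.7 counts were expected, and did not pass the test (edgeR adjusted p = 0.11), with WT counts that spread as described above. It did pass with DESeq2 (adjusted p = 6.5e-06), so its call depended on the method.

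NFKBIA stood apart among these genes because its KO libraries disagreed. It had 91, 0 and 0 counts in KO, or 112, 0 and 0 CPM, against 33.9, 34.7 and 33.3 CPM in WT. KO replicate 1 thus lay above every WT library and KO replicates 2 and 3 lay below. No change was called (log2 change -0.38, SE 1.01, edgeR adjusted p = 0.82). Without KO replicate 1 the gene was at 0 in KO and called lower (edgeR adjusted p = 0.00010; over all alternatives the adjusted p ran up to 0.89). With library totals in place of TMM factors, without KO replicate 2, or without KO replicate 3, the change turned to 0.16, 0.21 and 0.19.

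Among the other NF-kB targets, CCL2 (0 in KO, at least 6.27-fold lower), TNFAIP2 (at least 3.89-fold), CD83 (at least 3.67-fold) and IRF1 (at least 2.22-fold) were called lower, all at 0 in KO. CSF1 was also called lower (edgeR adjusted p = 0.030), but its WT level lies under the KO floor, so no fold is given. ICAM1 had 0, 0 and 5 counts in KO and PLAU had 0, 0 and 4, which came to 2.30 and 1.84 CPM on average against 0.380 and 0.822 in WT. In neither gene did the groups separate (edgeR adjusted p = 0.38 and 0.82), and without KO replicate 3 both were at 0. BCL3, CXCL8, CXCL2, CXCL3, LIF, VCAM1, TRAF1, BCL2A1 and IER3 were at 0 in KO and were not called, each with fewer than 3 counts expected.

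All 3 interferon transcription factors were called lower, and each had 3 or more counts expected, a class of which 90.6% was called lower in the whole table. STAT2 had 0, 3 and 0 counts in KO against 1210, 1452 and 1240 in WT, a pooled ratio of 16.6 (95% counting interval 5.67 to 80.3; log2 change -4.57, SE 0.57, edgeR adjusted p = 0.00069). Its 3 KO counts all came from KO replicate 2. IRF7 (448, 437 and 362 WT counts) and IRF9 were at 0 in KO and at least 5.29-fold and 2.83-fold lower. Of the effectors, OAS3 was at least 6.56-fold lower, HERC5 at least 3.44-fold, IFI27 at least 1.48-fold and OAS1 at least 1.12-fold, all at 0 in KO. IFIT1 passed narrowly with 0 KO counts (edgeR adjusted p = 0.046), with its WT level under the KO floor. The 17 called genes other than CSF1 and IFIT1 kept their call with DESeq2, limma on log2(FPKM + 1) and log2(FPKM + 0.1), other scalings and each library left out in turn. CSF1 lost it in 5 of these 11 alternatives and IFIT1 in 7.

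IFI6, the highest interferon-stimulated gene in WT, lay near the threshold. It had 0, 0 and 3 counts in KO against 305, 283 and 267 in WT, where 10.9 were expected, a pooled ratio of 3.63 (95% counting interval 1.24 to 17.6; log2 change -2.38, SE 0.79, edgeR adjusted p = 0.052). It passed with DESeq2 (adjusted p = 0.0035), with median-ratio size factors, with a filter at a mean of 1 FPKM and without KO replicate 3, where it was at 0 in KO, and its adjusted p ran from 0.0017 to 0.44 over the alternatives. IFI6 met that filter mainly through its WT values. IFITM3 had 0, 0 and 4 counts in KO against 51, 27 and 39 in WT, and no change was called (log2 change 0.90, SE 1.15, edgeR adjusted p = 0.70); without KO replicate 3 it was at 0. The KO counts of ICAM1, PLAU, IFITM3 and IFI6 thus all came from KO replicate 3. The summed epithelial markers were 1.47, 10.2 and 5.86 FPKM in KO replicates 1, 2 and 3, and their part in these counts was not tested. IFIH1, OAS2, OASL, IFIT2, IFIT3, MX1, MX2, IFITM1, IFITM2, BST2, ISG15, RSAD2, IFI44 and XAF1 were at 0 in KO and not called.

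In the upstream groups, too, 0 genes were called higher. Lower calls numbered 7 of 8 in the NF-kB core, 7 of 13 among its receptors and adaptors, 9 of 13 among interferon receptors and JAK-STAT genes and 7 of 11 in nucleic acid sensing, and 0 of 2 interferon genes were called, beside 42.6% of all genes and 90.6% of those with 3 or more counts expected. The highest gene of each group, RELA, IRAK1, IFNGR2 and ADAR, was called lower. CHUK, the kinase IKK-alpha, was the 1 gene of the core that was not called (edgeR adjusted p = 0.74 for a log2 change of 0.09, SE 0.13). Its direction depended on the scaling, at -0.34 (adjusted p = 0.036) with median-ratio factors and 0.62 (adjusted p = 0.013) with library totals. SOCS3, a feedback inhibitor of JAK kinases, stayed above 0 under each scaling (0.58, 0.14 and 1.11 with TMM factors, median-ratio factors and library totals) and was called with library totals only (adjusted p = 0.029). Over the 1513 genes with 30 or more KO counts, TMM factors gave a median log2 change of 0.44, library totals one of 0.97 and median-ratio factors one of 0.00.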

How the data were processed

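Poly(A) RNA of 3 OTULIN KO and 3 WT SH-SY5Y libraries was measured. For each gene and library the authors deposited a raw count and an FPKM value, per the file headers. Tools listed without role or order are HISAT2 2.0.4, cutadapt 1.9, DESeq2 and StringTie 1.3.4d, with build hg38, per the submitters' processing notes. Neither the annotation release nor the use of strand in counting is given in the sources used here.

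The genes and gene lists were chosen with earlier results of these data known. Values in every library are given for genes at 1 FPKM or more in WT, for those with a KO count and for the highest of each role group, and the counts of most others are printed as well. Of other lists, the highest gene in WT is named, and CHUK, SOCS3, CDH1, KRT8 and PTPRC were named after their values were seen. Counts of all 32862 genes were tested without an expression filter (edgeR 4.0.16, glmQLFit and glmQLFTest, TMM factors, library totals, R 4.3.3), with genotype as the only term and Benjamini-Hochberg adjustment. The standard error of a log2 change is its size divided by the root of the F statistic. On few KO counts it can be smaller than the counting error, as for STAT2, where it is narrower than the counting interval. Log2 changes use TMM factors, whereas folds and pooled ratios use CPM on library totals. For genes at 0 in KO the fold is against a floor of 3 counts over 2398362 KO counts (1.25 CPM) and is a lower bound; with 1 to 3 KO counts the pooled ratio has a 95% counting interval, and no fold is given where both groups lie under the floor. Intervals and floors cover counting error only. The code was tested on simulated data. Same-numbered KO and WT replicates showed no shared deviation at this depth, a check that cannot exclude pairing. The number was not used as a block in the main test. Replicate pairs differed by a chi-square of 15.5 to 41.7 per degree of freedom, so none was 1 library deposited again. Alternatives were DESeq2 1.42.0, limma 3.58.1 on log2(FPKM + 1) and log2(FPKM + 0.1), library totals, median-ratio factors, filters at a mean of 1 and 5 FPKM, a replicate block and leaving out each library. Promoter sequences are from RefSeq. Python 3.11.15 was used for the rest.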

Additional observations from a re-analysis of the deposited data

How the results depend on the processing

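The KO libraries limit these results: with 725827 to 862932 counts each, 28 of the 48 genes had fewer than 3 counts expected over all 3, and the absence of counts in them shows little. Genes at 0 in KO have fitted changes that depend on the prior count. Without an expression filter 19 genes were called lower and 0 higher; with limma on log2(FPKM + 0.1) 31 were lower. Filters left fewer genes to test: at a mean of 1 FPKM 7 of 8 tested were lower (where 88.0% of 10820 genes were lower and 7.63% higher), and at a mean of 5 FPKM 0 of 1, with 4504 calls among all genes against 14795 without a filter. Genes at 0 in KO can pass such a filter only through WT, so lower calls under it are favoured by the filter itself. Leaving out each library gave 17 to 21 lower and 0 higher. With the replicate number as a block, 0 of the 48 and 328 of all genes were called (250 higher and 78 lower). Same-numbered replicates had correlations of 0.0058, -0.012 and 0.029 over 1462 genes. At the KO depth this check cannot exclude pairing, so whether the block belongs in the test is not settled.

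Leaving out each library, the log2 change ran from -13.34 (without KO replicate 1) to 0.21 for NFKBIA, and from values without KO replicate 3, where these 3 genes have no KO counts, of -6.87 to 2.57 for ICAM1, -7.98 to 1.09 for PLAU and -7.58 to 1.49 for IFITM3. NFKBIA also turned to 0.16 with library totals. PLAU also turned to -0.48 and IFITM3 to -0.24 with limma on log2(FPKM + 0.1), and to -0.80 and -0.49 with the block; the cause was not tested. A line at 2 FPKM in place of 1 left 5 NF-kB targets above it (8 before), and 1 on a TPM scale left 9 interferon-stimulated genes (3 before). Leaving out each KO library in turn gave 3 to 4 NF-kB targets and 1 to 3 interferon-stimulated genes with a KO count, in place of 5 and 3. The NF-kB share of WT counts was 0.0211% outside the mitochondrial genome and 0.0129% of summed FPKM, and the interferon share 0.00614% and 0.00453%.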
